A study of Homo sapiens with 12 samples.

Results

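The long arm of chromosome 7 between 7q21 and 7q31 holds a run of neighbouring genes that read lower in NF1 knockout T47D cells than in control T47D cells. Described here are 59 of those genes, from AKAP9 to ST7 (GRCh38 chr7:91940862-117230176), out of 27864 in the count table. They were chosen by name after the stretch had been seen lower in NF1KO than in CTRL libraries in both treatments, so the knockout values below describe the choice, carry no test and support nothing. All 59 were found in the table. Of these, 56 passed the filter on low counts and were tested, while CAV1, CAV2 and TES had next to no reads. The 16081 genes tested across the genome included 182 in the stretch, of which 126 were not members.

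T47D is an established line of estrogen receptor-positive, luminal breast cancer cells. The NF1KO BYL719 group held 3 libraries of the NF1 knockout line treated with 3 µM BYL719 for 48 h, and the NF1KO DMSO group held 2 libraries of the same line given vehicle, since its replicate 1 was not analysed here. The CTRL BYL719 and CTRL DMSO groups held 3 libraries each of the control line under the same treatments. BYL719, or alpelisib, inhibits the alpha isoform of PI3K, the kinase upstream of AKT, and NF1 encodes neurofibromin, which promotes GTP hydrolysis by RAS. The labels do not say how the knockout was made, whether either line was derived from 1 cell, or whether the replicates, called experimental, were separate cultures, so that p-values measure the spread between these libraries only and a difference between the lines cannot be told apart from a difference between clones.

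Genes that lie next to each other share little function as a rule, but neighbours can share the copy number of a chromosome segment or a chromatin domain, and T47D, like most carcinoma lines, has an abnormal chromosome set. Copy number was not measured in these libraries, and its part in the values below was not tested. Among the members are a pair of imprinted neighbours, PEG10 and SGCE, which in most tissues are transcribed from the paternal copy and share a promoter region. Others serve the actin skeleton, transcription, vesicle transport, protein turnover and mitochondrial metabolism.

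The libraries held between 53283945 and 60148876 counts. NF1 itself read 0.400 to 0.891 normalised read counts scaled to the library total (CPM) in NF1KO BYL719 and 0.471 and 0.480 CPM in NF1KO DMSO, against 147 to 214 CPM in CTRL BYL719 and 209 to 289 CPM in CTRL DMSO. All 8 luminal markers were detected, at a sum of 9946 to 10678 CPM in NF1KO BYL719 and 10432 to 10562 CPM in NF1KO DMSO, against 11228 to 13206 CPM in CTRL BYL719 and 9221 to 10713 CPM in CTRL DMSO. Single luminal markers differed between the lines, with log2 fold changes of -0.40 to 0.13 in BYL719 and -0.83 to 0.32 in DMSO. By edgeR (adjusted p under 0.05), 5 were called lower in NF1KO in BYL719 and 3 in DMSO, and none higher. Over all tested genes, 19.0% and 10.3% were called lower. The 6 markers of other cells summed to 17.2 to 22.1 CPM in NF1KO BYL719 and 26.1 CPM in both NF1KO DMSO libraries, against 27.2 to 35.6 CPM in CTRL BYL719 and 49.4 to 55.2 CPM in CTRL DMSO. Nearly all of that sum was COL1A1, while KRT5 and PTPRC were at 0 in NF1KO libraries and at no more than 3 counts in any CTRL library. PECAM1 had 25 to 39 counts in NF1KO BYL719 and 8 and 9 in NF1KO DMSO, against 0 in every CTRL library. The part of these markers in the results below was not tested, and in bulk RNA fewer cells with an RNA cannot be told apart from less RNA per cell.

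The promoters of 3 members that turn up again in the drug response are printed here. Each is the 250 bases before a RefSeq start on GRCh38.p14, 5′ to 3′ on the gene's strand. They were picked after the values were seen, for a strong response to BYL719 in both lines (HBP1) or a response that differed between the lines (PDK4 and IFRD1). Capitals mark a forkhead motif, GTAAACA or its reverse complement, as read by FOXO factors that AKT keeps out of the nucleus, or a cyclic AMP response element, the palindrome TGACGTCA, as read by CREB and ATF factors.
HBP1, chr7:107168753-107169002, plus strand: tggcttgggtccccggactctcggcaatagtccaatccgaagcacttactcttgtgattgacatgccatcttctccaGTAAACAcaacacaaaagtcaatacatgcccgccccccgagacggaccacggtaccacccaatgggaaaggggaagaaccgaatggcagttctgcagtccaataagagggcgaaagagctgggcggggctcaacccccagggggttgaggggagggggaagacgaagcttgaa
IFRD1, chr7:112450210-112450459, plus strand: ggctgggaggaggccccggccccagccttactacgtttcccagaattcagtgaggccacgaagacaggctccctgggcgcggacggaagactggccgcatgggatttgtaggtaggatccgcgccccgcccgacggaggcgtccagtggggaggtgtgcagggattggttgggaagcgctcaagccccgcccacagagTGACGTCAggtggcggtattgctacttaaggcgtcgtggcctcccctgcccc
PDK4, chr7:95596517-95596766, minus strand: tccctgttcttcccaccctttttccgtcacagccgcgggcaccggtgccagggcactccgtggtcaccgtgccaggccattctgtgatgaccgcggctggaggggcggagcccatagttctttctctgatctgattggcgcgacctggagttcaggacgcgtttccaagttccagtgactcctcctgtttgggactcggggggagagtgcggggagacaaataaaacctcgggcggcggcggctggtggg
The forkhead letters in HBP1 begin 173 bases before the start, and the cyclic AMP element in IFRD1 begins 52 bases before it. IFRD1 has 4 annotated windows, of which 2 hold the element, and the window shown is the lower-lying of these. It was taken because it holds the element. Its start, at base 112450460, is not the start of the gene as a whole, which lies at base 112423174. HBP1 has 2 windows, of which only the one shown holds the forkhead letters. PDK4 held neither motif, which says only that these letters are not in this window. RefSeq windows, searched over 250 bases before and 50 after the start on both strands, were given for 53 of the 59 members and not for RBM48, SGCE, PEG10, TRRAP, ARPC1B and POLR2J. These members had 82 windows. The forkhead letters were in 5 of them, or 6.10%, each in a different member (AKAP9, AP4M1, HBP1, SAMD9L and SRPK2), against 3.42% of all 35116 windows. The cyclic AMP element was in 4, or 4.88%, of 3 members (IFRD1, ST7 and TRIP6), against 1.85% of all windows. A match describes the letters and is not evidence of binding. The motifs do not overlap each other in any window shown.

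The shift of the members was broad and of moderate size. In BYL719 the median member had 69.1% of the CTRL level in NF1KO cells, a log2 fold change of -0.53 with an interquartile range of -0.66 to -0.23, and 52 of 56 lay below 0. In DMSO the median was 72.6% of the CTRL level, a log2 fold change of -0.46 with an interquartile range of -0.64 to -0.32, and 50 of 56 lay below 0. Over all 16081 tested genes the medians were -0.00 in BYL719 and -0.01 in DMSO. In BYL719, 41 members were called lower and 4 higher by edgeR (adjusted p under 0.05), where 19.0% of all tested genes were called lower and 20.8% higher. In DMSO, 41 were called lower and 2 higher, against 10.3% and 9.99% of all tested genes. Every NF1KO library lay below every CTRL library for 42 members in BYL719 and 47 in DMSO, compared with 23.7% and 28.2% of all tested genes. These contrasts chose the members, and nothing is read from their counts.

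**Figure D1:**
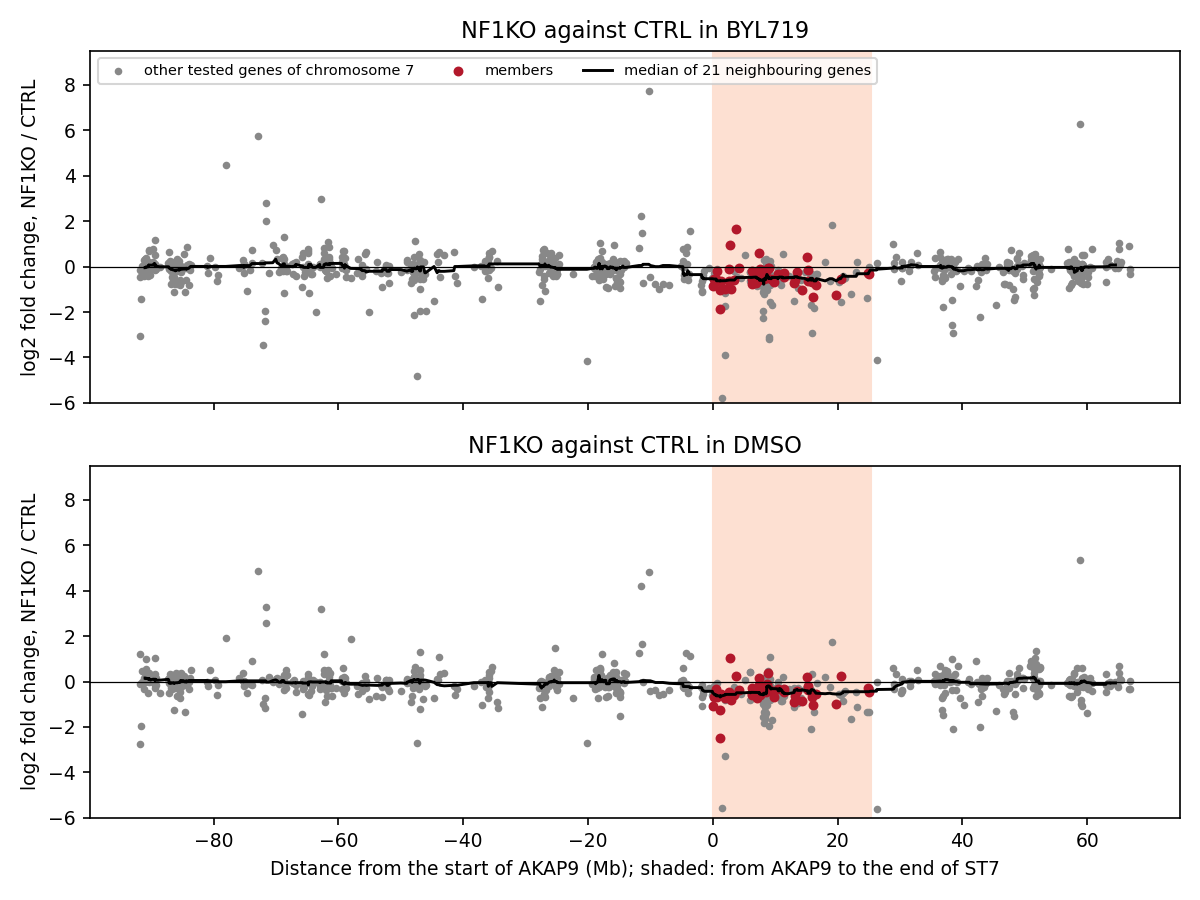
Log2 fold change of NF1KO over CTRL (vertical axis) for every tested chromosome 7 gene, placed by its distance from the start of AKAP9 in megabases (horizontal axis), with BYL719 and DMSO in separate panels. Members are red, other genes grey, the stretch is shaded and the line is a rolling median over neighbouring genes, which lies near 0 on both sides and drops within the stretch, where the tested members have medians of -0.53 in BYL719 and -0.46 in DMSO.

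Seen library by library, the members were shifted by nearly the same amount in all knockout libraries. The median log2 ratio of the 56 members to the CTRL mean of the same treatment was -0.50, -0.50 and -0.52 in the 3 NF1KO BYL719 libraries and -0.48 and -0.44 in the 2 NF1KO DMSO libraries. In CTRL libraries it lay between -0.02 and 0.03. The medians of the knockout libraries did not overlap with those of the CTRL libraries. These same libraries chose the members, and each CTRL library was compared with a mean that includes it. The gap is therefore a description and supports nothing.

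**Figure D2:**
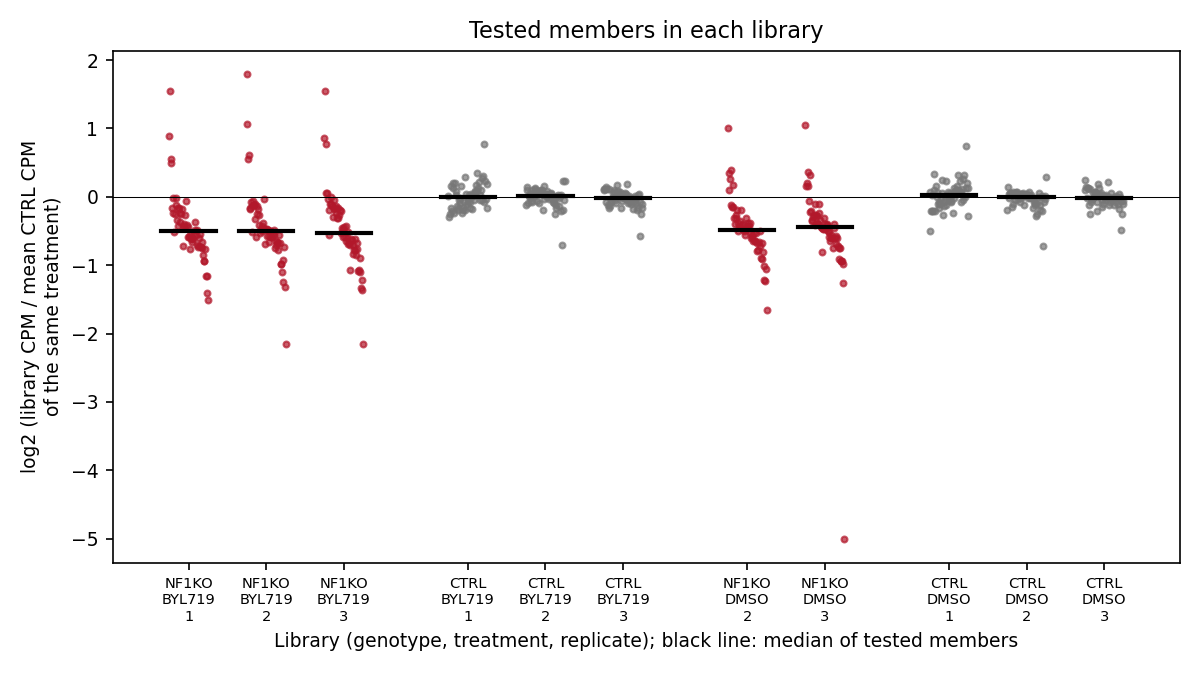
Log2 ratio of each tested member to the CTRL mean of the same treatment (vertical axis) in each of the 11 libraries (horizontal axis), with a point for each member and a bar at the median. The lowest point of NF1KO DMSO replicate 3 is SAMD9L. Medians lie between -0.52 and -0.44 in NF1KO libraries and between -0.02 and 0.03 in CTRL libraries.

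The members lay somewhat closer to their shifted median than genes in general did to theirs, with a tail at both ends. In BYL719, 53.6% of the 56 members lay within 0.25 log2 units of the members' median and 85.7% within 0.5, against 48.8% and 72.8% of all tested genes around their own median. In DMSO, 64.3% lay within 0.25 and 80.4% within 0.5, against 56.8% and 79.0% of all tested genes. The interquartile range was 0.43 in BYL719 and 0.32 in DMSO, against 0.52 and 0.42 over all tested genes. Over the 126 other tested genes of the stretch it was 0.45 in BYL719 and 0.54 in DMSO. The members were chosen in these contrasts, so their spread carries no test. Across the 56 members the log2 fold changes in BYL719 and DMSO, which share no library, correlated at a Pearson r of 0.82 and a Spearman rho of 0.81, against 0.77 and 0.62 across all tested genes, as a description over genes that are not independent replicates. Of the 56, 50 lay below 0 in both treatments, and 4 (PEG10, PDK4, ARPC1B and PRKAR2B) lay above 0 in both.

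The shift reached past the member list at the lower end and ended with it at the upper end. Named here are the nearest genes that reach 2 or more in mean log2 CPM. Just outside the lower end, MTERF1, a mitochondrial transcription termination factor, had log2 fold changes of -0.48 in BYL719 and -0.59 in DMSO. FZD1 and CDK14, the next genes out, had -0.05 and -0.18 in BYL719 and -0.30 and -0.37 in DMSO. Just inside, AKAP9, KRIT1 and ANKIB1 had -0.85, -0.53 and -0.67 in BYL719 and -1.07, -0.70 and -0.63 in DMSO. The AKAP9 values depended on CTRL replicate 1, and were -0.21 in BYL719 and -0.47 in DMSO without it in both treatments. At the upper end, CAPZA2 and ST7 had -0.26 and -0.31 in BYL719 and -0.27 and -0.45 in DMSO. Just outside that end, LSM8, TSPAN12 and ING3 had 0.18, 1.00 and 0.18 in BYL719 and -0.03, 0.62 and -0.12 in DMSO. None of these 3 was lower in both treatments to the degree of the members. In bins of 10 Mb of the chromosome, the medians of all tested genes were -0.59 in BYL719 and -0.55 in DMSO from 90 to 100 Mb, -0.50 and -0.41 from 100 to 110 Mb, and -0.49 and -0.49 from 110 to 120 Mb. The neighbouring bins had medians of -0.00 in BYL719 and -0.10 in DMSO from 80 to 90 Mb, and of 0.01 and 0.02 from 120 to 130 Mb.

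The other tested genes of the stretch read lower to the same degree. The 126 had medians of -0.52 in BYL719 and -0.50 in DMSO, with 114 and 115 below 0. Of them, 80 and 60 were called lower, against 19.0% and 10.3% of all tested genes. The stretch was picked for being lower in these same contrasts, so these values too describe the choice and carry no test. Their range was wider than that of the members, from -5.78 to 1.81 in BYL719 and from -5.56 to 1.75 in DMSO. Considered next are those that reach 2 or more in mean log2 CPM and are neither pseudogenes nor named as noncoding RNAs. Among these, GNG11, a G protein gamma subunit, was lowest, with log2 fold changes of -3.88 in BYL719 and -3.26 in DMSO. By the mean of both treatments, AZGP1, NRCAM, FOXP2 and MET, the receptor of hepatocyte growth factor, came next. They had -1.94, -1.83, -1.21 and -1.36 in BYL719 and -1.57, -1.35, -1.63 and -1.36 in DMSO. LRRN3, a leucine-rich repeat membrane protein, was the highest, with 1.81 and 1.75. It overlaps IMMP2L, which has 100.6% as many counts. The chromosome 7 genes below the stretch (414) had medians of -0.04 in BYL719 and -0.03 in DMSO, and those above it (200) had -0.04 and -0.02.

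PEG10, an imprinted gene derived from a retrotransposon, was the clearest exception. It read 1934, 2194 and 1899 CPM in NF1KO BYL719 and 2269 and 2356 CPM in NF1KO DMSO, against 1058, 968 and 1120 CPM in CTRL BYL719 and 1194, 995 and 1208 CPM in CTRL DMSO. Each knockout library thus lay far above each control library, at 192% of the CTRL mean in BYL719 and 204% in DMSO (log2 fold changes of 0.94 ± 0.09 and 1.03 ± 0.10, SE). SGCE, which encodes epsilon-sarcoglycan and starts beside PEG10 in the opposite direction, did not share that direction. It read 19.4, 19.8 and 21.1 CPM in NF1KO BYL719 and 16.7 and 17.8 CPM in NF1KO DMSO, against 19.5, 23 and 22.8 CPM in CTRL BYL719 and 21, 24.9 and 24.9 CPM in CTRL DMSO. Its log2 fold change was -0.12 ± 0.09 in BYL719, where the groups overlapped, and -0.45 ± 0.10 in DMSO, where they did not. SGCE overlaps CASD1, which has 62.0% as many counts.

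PEG10 took a large share of the members' summed level. As reads not divided by gene length, PEG10 made up 46.7% to 50.9% of the CPM of all 59 members in NF1KO libraries and 24.4% to 28.0% in CTRL libraries. Without PEG10 the members summed to 2138 ± 27.2 CPM in NF1KO BYL719 (SD, n = 3) and 2294 ± 52.4 CPM in NF1KO DMSO (SD, n = 2), against 2972 ± 65.8 CPM in CTRL BYL719 and 3135 ± 80.0 CPM in CTRL DMSO (SD, n = 3 each). With PEG10 the sums of the lines overlapped in BYL719 and were higher in NF1KO libraries in DMSO, at 4063 to 4310 CPM in NF1KO BYL719 and 4527 and 4687 CPM in NF1KO DMSO, against 3923 to 4103 CPM in CTRL BYL719 and 4074 to 4420 CPM in CTRL DMSO.

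The neighbouring paralogs SAMD9 and SAMD9L, interferon-inducible proteins that restrict poxviruses and restrain growth, stood at the low end. SAMD9 read 2.59, 3.45 and 2.47 CPM in NF1KO BYL719 and 1.75 and 1.72 CPM in NF1KO DMSO, against 5.65, 6.75 and 4.85 CPM in CTRL BYL719 and 4.76, 4.17 and 3.45 CPM in CTRL DMSO, and the groups did not overlap in either treatment. Its log2 fold changes were -1.02 ± 0.17 in BYL719 and -1.25 ± 0.21 in DMSO. SAMD9L had few reads, with 13, 8 and 8 counts in NF1KO BYL719 and 10 and 1 in NF1KO DMSO, against 34, 41 and 35 counts in CTRL BYL719 and 28, 39 and 30 in CTRL DMSO. Its log2 fold change was -1.88 ± 0.40 in BYL719 and -2.50 ± 0.51 in DMSO, and the DMSO value rested on the single count, being -4.84 without NF1KO DMSO replicate 2 and -1.64 without replicate 3.

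**Figure D3:**
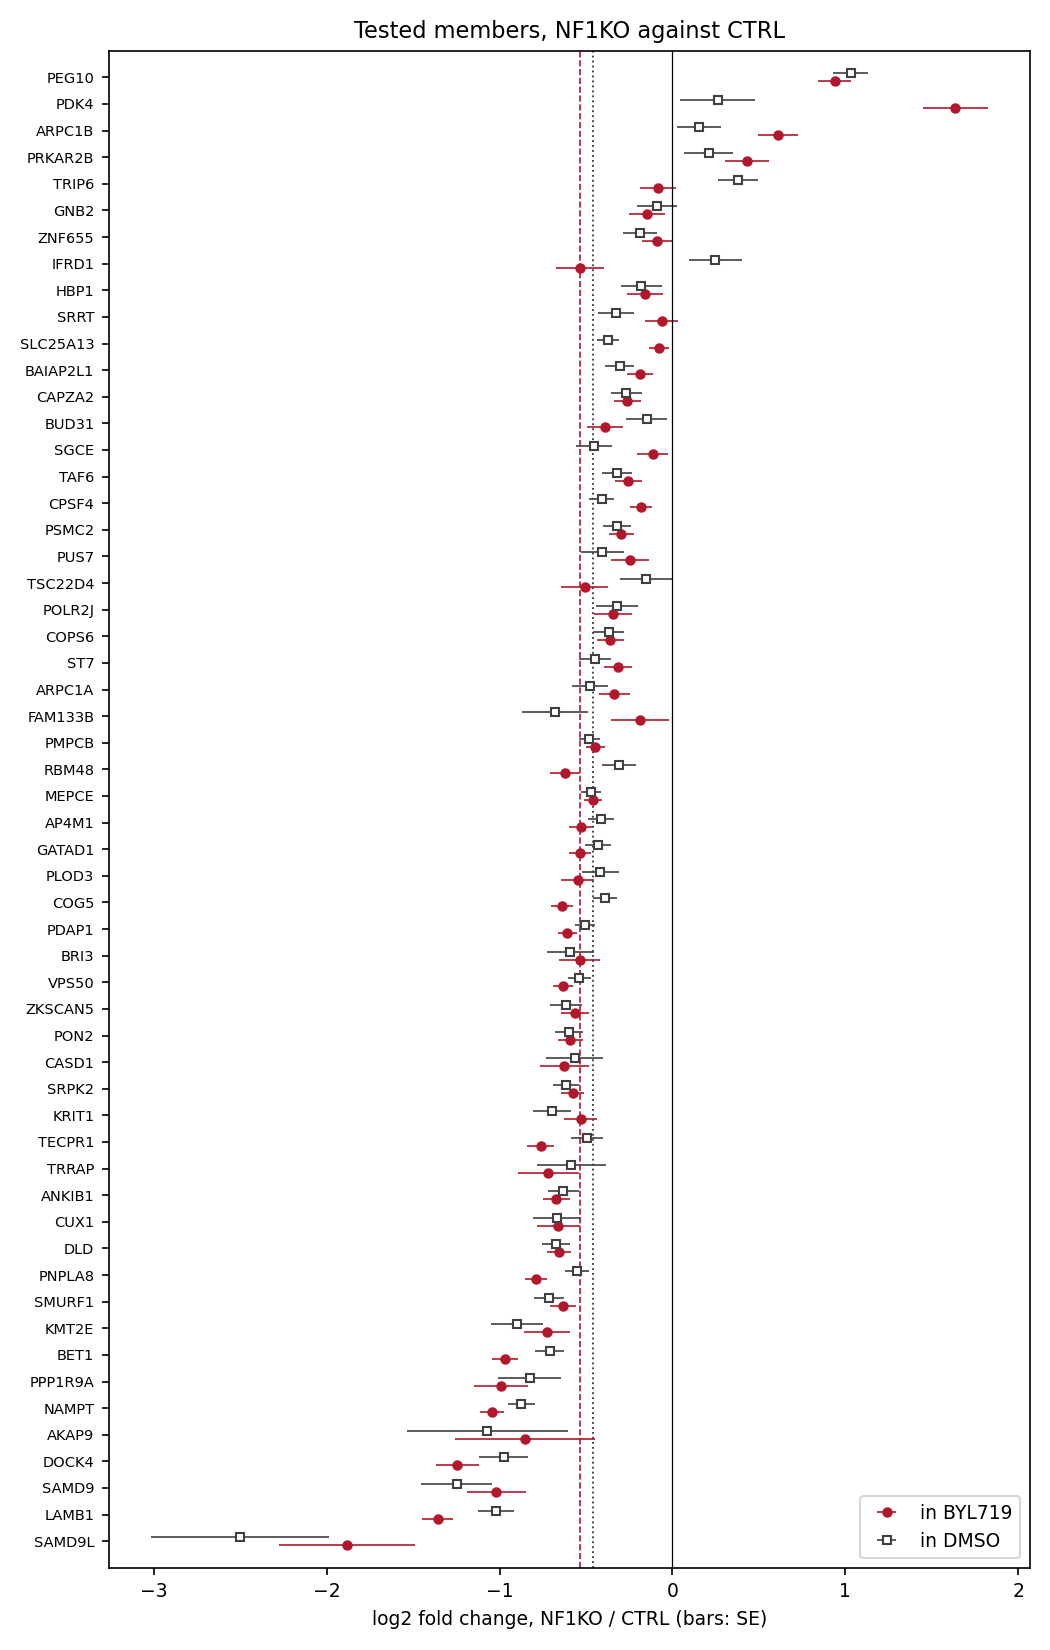
Log2 fold change of NF1KO over CTRL with its standard error (horizontal axis) for the 56 tested members, ordered by the mean of both treatments, with filled circles for BYL719, open squares for DMSO and broken lines at the members' medians of -0.53 and -0.46. Most members lie to the left of 0, with SAMD9L furthest below and PEG10 and, in BYL719, PDK4 furthest above.

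The members are taken by role next, with medians and ranges that describe how they were chosen. The 6 membrane traffic members had median log2 fold changes of -0.64 in BYL719 and -0.52 in DMSO, against -0.53 and -0.46 over all members. They comprise VPS50 (endosome recycling), BET1 (a SNARE of transport from the endoplasmic reticulum to the Golgi), CASD1 (the sialic acid O-acetyltransferase of the Golgi), TECPR1 (autophagosome maturation), AP4M1 (an adaptor complex subunit) and COG5 (a Golgi tether). Their log2 fold changes lay between -0.97 and -0.53 in BYL719 and between -0.71 and -0.39 in DMSO. BET1 had the lowest in both, at 14.9 ± 1.23 CPM in NF1KO BYL719 and 14.4 ± 0.464 CPM in NF1KO DMSO, against 29.1 ± 0.756 CPM in CTRL BYL719 and 23.6 ± 0.710 CPM in CTRL DMSO (SD).

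The 4 members of protein turnover had medians of -0.50 in both treatments. The ubiquitin ligases ANKIB1 and SMURF1 had log2 fold changes of -0.67 and -0.63 in BYL719 and -0.63 and -0.71 in DMSO. COPS6, of the COP9 signalosome, and PSMC2, an ATPase of the proteasome cap, shifted less, with -0.36 and -0.30 in BYL719 and -0.37 and -0.32 in DMSO.

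The 8 members of metabolism and mitochondria had medians of -0.57 in BYL719 and -0.52 in DMSO, with PDK4 apart from the rest. NAMPT, the rate-limiting enzyme of NAD salvage, read 41.5 ± 2.71 CPM in NF1KO BYL719 and 42.4 ± 2.85 CPM in NF1KO DMSO, against 85.6 ± 3.69 CPM in CTRL BYL719 and 77.7 ± 0.618 CPM in CTRL DMSO, or 48.5% of the CTRL mean in BYL719 and 54.5% in DMSO. The lactonase PON2, the lipoamide dehydrogenase DLD, the phospholipase PNPLA8, the processing peptidase subunit PMPCB and the lysyl hydroxylase PLOD3 lay between -0.79 and -0.45 in BYL719 and between -0.67 and -0.42 in DMSO. SLC25A13, the aspartate-glutamate carrier of mitochondria, had -0.08 in BYL719 and -0.37 in DMSO. PDK4, the kinase that switches off pyruvate dehydrogenase, had 1.64 in BYL719 and 0.26 in DMSO.

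Transcription and chromatin members numbered 12, with medians of -0.52 in BYL719 and -0.38 in DMSO. The lowest in both treatments was KMT2E, a SET domain protein, with -0.73 in BYL719 and -0.90 in DMSO. CUX1, a homeobox factor often lost with 7q in myeloid leukaemia, had -0.66 and -0.67, and TRRAP, a scaffold of histone acetyltransferase complexes, had -0.72 and -0.59. These 3 stood below the members' median in both treatments. For each of them CTRL replicate 1 was the highest of its group in both treatments, which lowers these log2 fold changes. TRRAP read 127 CPM in that replicate of CTRL BYL719, against 83.3 and 88.3 CPM in the others. In CTRL DMSO it read 141 CPM, against 93.0 and 104 CPM. TRRAP was not called in DMSO (edgeR adjusted p 0.0578), where the NF1KO libraries read 65.0 and 85.1 CPM. GATAD1 (a GATA zinc finger protein), ZKSCAN5 (a zinc finger protein), MEPCE (the capping enzyme of 7SK RNA), POLR2J and TAF6 (a TFIID subunit) lay between -0.56 and -0.26 in BYL719 and between -0.61 and -0.32 in DMSO. The leucine zipper protein TSC22D4 had -0.51 in BYL719 and -0.15 in DMSO. ZNF655, a zinc finger protein, and HBP1, a repressor of cell cycle genes, lay nearer to 0, with -0.09 and -0.16 in BYL719 and -0.19 and -0.18 in DMSO. POLR2J, a subunit of RNA polymerase II, has near-identical copies on the same chromosome, and its reads may be split among them.

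The 6 members of RNA processing had medians of -0.32 in BYL719 and -0.37 in DMSO. The splicing kinase SRPK2 had -0.58 in BYL719 and -0.62 in DMSO, and RBM48, of minor intron splicing, had -0.62 and -0.31. The splicing factor BUD31, the 3′ end processing factor CPSF4, the nuclear RNA adaptor SRRT and the pseudouridine synthase PUS7 lay between -0.39 and -0.06 in BYL719 and between -0.41 and -0.15 in DMSO.

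Of the 12 cytoskeleton, adhesion and caveolar members, 9 were tested, with medians of -0.34 in BYL719 and -0.48 in DMSO. They include LAMB1 and DOCK4, the lowest members after SAMD9L in BYL719. LAMB1, the laminin beta chain, read 54.7, 58.1 and 56.4 CPM in NF1KO BYL719 and 59 and 62 CPM in NF1KO DMSO, against 165, 140 and 129 CPM in CTRL BYL719 and 134, 120 and 115 CPM in CTRL DMSO, with no overlap. This came to 39.0% of the CTRL mean in BYL719 and 49.2% in DMSO. DOCK4, an activator of RAC, had 42.2% and 50.8% of the CTRL mean, and PPP1R9A, a phosphatase scaffold on actin, had 50.3% and 56.4%. KRIT1 (a cell junction protein), ARPC1A, BAIAP2L1 (actin protrusions) and CAPZA2 (actin capping) lay between -0.53 and -0.19 in BYL719 and between -0.70 and -0.27 in DMSO, and TRIP6, an adhesion LIM protein, had -0.08 and 0.38. ARPC1A and ARPC1B, alternative subunits of the ARP2/3 complex, lie side by side and had log2 fold changes of -0.34 and 0.61 in BYL719 and -0.48 and 0.15 in DMSO. ARPC1B overlaps PDAP1, which has 2.5 times its counts.

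The caveolin genes and TES were at the floor of detection. CAV1 had 4 counts over the 11 libraries, all in CTRL libraries, CAV2 had 0, and TES, a focal adhesion protein, had 1. A count of 0 allows up to 3 counts, or 0.0499 to 0.0563 CPM by library, for counting error only, so no difference between the groups was detectable for these 3 members.

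The 7 remaining members had medians of -0.31 in BYL719 and -0.51 in DMSO. BRI3, PDAP1 and ST7 had -0.54, -0.61 and -0.31 in BYL719 and -0.59, -0.51 and -0.45 in DMSO. FAM133B, which has near-identical copies elsewhere, had -0.19 and -0.68. The G protein beta subunit GNB2 had -0.15 and -0.09, and PRKAR2B, a regulatory subunit of protein kinase A, had 0.43 and 0.21. AKAP9, a Golgi and centrosome anchor of protein kinase A, read 43.0, 38.6 and 39.4 CPM in NF1KO BYL719 and 25.1 and 30.6 CPM in NF1KO DMSO, against 125, 44.8 and 48.9 CPM in CTRL BYL719 and 97.9, 35.5 and 42.0 CPM in CTRL DMSO. Its CTRL replicate 1 stood far above the others in both treatments. Without both of these libraries, an alternative added after seeing the data, its log2 fold change was -0.21 in place of -0.85 in BYL719 and -0.47 in place of -1.07 in DMSO.

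Members standing over 3 scaled median absolute deviations from the members' median were few. In BYL719 they were SAMD9L below it and PDK4, PEG10 and ARPC1B above it. In DMSO they were SAMD9L and SAMD9 below it and PEG10, TRIP6, PDK4 and IFRD1 above it. At least 20% as many counts as the member's own came from a gene overlapping in position for 20 members, including the pairs KRIT1 and ANKIB1, CASD1 and SGCE, BRI3 and BAIAP2L1, ARPC1B and PDAP1, AP4M1 and TAF6, PMPCB and PSMC2, KMT2E and SRPK2, and HBP1 and COG5. The strand setting of the counting was not given in the sources used here, so reads of such pairs may not be fully told apart.

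The response to BYL719 within each line was not used to choose the members and can be tested. In CTRL cells the members did not move as a block. The median log2 fold change of BYL719 over DMSO was 0.04, with an interquartile range of -0.25 to 0.26, against a median of 0.00 over all tested genes. By edgeR's quasi-likelihood test with Benjamini-Hochberg adjustment over all tested genes, 10 of 56 members rose and 13 fell, where 22.6% of all tested genes rose and 21.8% fell.

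The fall of ARPC1B was the largest change of a member in CTRL cells. It read 20.1, 25.6 and 26.0 CPM in CTRL BYL719 and 48.9, 57.7 and 62.3 CPM in CTRL DMSO, with no overlap, a log2 fold change of -1.23 ± 0.12 (adjusted p 5.88e-06). SLC25A13 read 70.8, 70.6 and 67.1 CPM in CTRL BYL719 and 105, 107 and 103 CPM in CTRL DMSO, a log2 fold change of -0.59 ± 0.06 (edgeR adjusted p 6.06e-06). BAIAP2L1 fell by 0.57 on the log2 scale (edgeR adjusted p 7.29e-05) and PSMC2 fell by 0.50 (adjusted p 0.000154). CPSF4 and TAF6 each fell by 0.41 (edgeR adjusted p 0.000241 and 0.00115). PRKAR2B fell by 0.41 (edgeR adjusted p 0.0211) and IFRD1, a transcriptional coregulator, by 0.39 (adjusted p 0.0361). ARPC1A, COPS6, DLD, GNB2 and SRRT were the other members that fell.

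HBP1 had the largest rise in CTRL cells. It read 55.4, 70.2 and 70.5 CPM in CTRL BYL719 and 35, 42.6 and 43.7 CPM in CTRL DMSO, without overlap, a log2 fold change of 0.69 ± 0.11 (edgeR adjusted p 0.000235). GATAD1 read 31.1, 30.3 and 30.0 CPM in CTRL BYL719 and 21.3, 20.1 and 19.8 CPM in CTRL DMSO, a log2 fold change of 0.58 ± 0.06 (edgeR adjusted p 2.14e-05). RBM48 rose by 0.54 on the log2 scale (edgeR adjusted p 0.000354), SAMD9 by 0.48 (adjusted p 0.0343), PPP1R9A by 0.43 (adjusted p 0.0421) and PNPLA8 by 0.42 (adjusted p 0.000211). ZNF655 and BET1 rose by 0.34 and 0.30 (edgeR adjusted p 0.00722 and 0.00480). TECPR1 and COG5 were the other members that rose.

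Of the 16 calls in CTRL cells with values here, 12 were kept under all 20 alternatives tried. The call of IFRD1 was lost without CTRL BYL719 replicate 2 or 3, CTRL DMSO replicate 1 or NF1KO BYL719 replicate 2 (edgeR adjusted p 0.0983, 0.131, 0.151 and 0.0511, over a range of 0.00432 to 0.151 for all alternatives, DESeq2 and limma included). Without CTRL DMSO replicate 1 its log2 fold change was -0.20 in place of -0.39. The call of SAMD9 was lost without CTRL BYL719 replicate 2, CTRL DMSO replicate 2 or 3 or either NF1KO DMSO library (edgeR adjusted p 0.0508 to 0.140, over a range of 0.00716 to 0.140). PPP1R9A lost its call without any 1 library other than CTRL BYL719 replicates 2 and 3 and CTRL DMSO replicate 1 (edgeR adjusted p 0.0542 to 0.160, over a range of 0.00103 to 0.160), and without CTRL BYL719 replicate 1 its log2 fold change was 0.24 in place of 0.43. PRKAR2B lost its call without CTRL BYL719 replicate 2 or 3 (edgeR adjusted p 0.0716 and 0.0739, over a range of 0.00203 to 0.0739). A fit to the compared libraries alone also left IFRD1, SAMD9 and PPP1R9A without a call (edgeR adjusted p 0.0987, 0.0606 and 0.116).

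In NF1KO cells the members again did not move as a block under BYL719. The median log2 fold change over DMSO was -0.01, with an interquartile range of -0.19 to 0.21, against a median of 0.01 over all tested genes. By edgeR, 5 of 56 members rose and 10 fell, where 10.3% of all tested genes rose and 8.47% fell.

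PDK4 had the largest rise in NF1KO cells. It read 4.61, 5.49 and 4.64 CPM in NF1KO BYL719 and 2.25 and 1.97 CPM in NF1KO DMSO, a log2 fold change of 1.22 ± 0.21 (edgeR adjusted p 0.00250). HBP1 read 54.9, 59.7 and 60.7 CPM in NF1KO BYL719 and 36.5 and 34.9 CPM in NF1KO DMSO, a log2 fold change of 0.71 ± 0.12 (edgeR adjusted p 0.00225). Neither gene's groups overlapped. SAMD9 rose by 0.71 on the log2 scale (edgeR adjusted p 0.0339), GATAD1 by 0.47 (adjusted p 0.00139) and ZNF655 by 0.44 (adjusted p 0.00991).

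IFRD1 had the largest fall in NF1KO cells. It read 12, 12 and 11.7 CPM in NF1KO BYL719 and 25.4 and 28.3 CPM in NF1KO DMSO, a log2 fold change of -1.18 ± 0.15 (edgeR adjusted p 0.000497). ARPC1B read 33.5, 35.2 and 40.7 CPM in NF1KO BYL719 and 60.3 and 64.7 CPM in NF1KO DMSO, a log2 fold change of -0.78 ± 0.13 (edgeR adjusted p 0.00185). Both were lower in each treated library than in each vehicle library. PSMC2 and BAIAP2L1 fell by 0.47 and 0.46 (edgeR adjusted p 0.00212 and 0.00339). GNB2, DLD, TAF6 and SLC25A13 fell by 0.38, 0.37, 0.34 and 0.30 (edgeR adjusted p 0.0381, 0.00720, 0.0179 and 0.00716). COPS6 and PDAP1 were the other members that fell.

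With 2 NF1KO DMSO libraries these calls were less secure, and 7 of the 13 with values here were kept under all 20 alternatives. Without NF1KO DMSO replicate 2 or replicate 3, 3 members rose and 4 fell in either case, in place of 5 and 10, and SAMD9, ZNF655, GNB2, DLD, TAF6 and SLC25A13 lost their calls. Over all alternatives the edgeR, DESeq2 or limma adjusted p reached 0.190 for SAMD9, 0.121 for ZNF655, 0.215 for GNB2, 0.0719 for DLD, 0.166 for TAF6 and 0.0909 for SLC25A13. Without NF1KO BYL719 replicate 1 or replicate 2, 6 members fell. SAMD9, GNB2 and TAF6 lost their calls without either of these libraries, and GNB2 also without CTRL DMSO replicate 2 (edgeR adjusted p 0.0516). SAMD9 was not called by limma-voom either (adjusted p 0.0645).

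The lines shared 4 members called higher and 9 called lower. Those called higher in both were GATAD1, HBP1, SAMD9 and ZNF655, which are 4 of the 5 members called in NF1KO cells and 4 of the 10 in CTRL cells. Over all tested genes, the calls higher in both were 81.2% of those in NF1KO and 37.0% of those in CTRL cells. Those called lower in both were ARPC1B, BAIAP2L1, COPS6, DLD, GNB2, IFRD1, PSMC2, SLC25A13 and TAF6, which are 9 of the 10 called in NF1KO and 9 of the 13 in CTRL cells. Over all tested genes, the calls lower in both were 77.4% of those in NF1KO and 30.1% of those in CTRL cells. All 23 members called in CTRL cells had the same sign in NF1KO cells, as had 87.3% of all genes called in CTRL cells. Across the 56 members the log2 fold changes of the drug in the lines, which share no library, correlated at a Pearson r of 0.65 and a Spearman rho of 0.72, against 0.61 and 0.64 across all tested genes. PEG10 was not called in either line, with log2 fold changes of -0.20 ± 0.10 in NF1KO cells (edgeR adjusted p 0.193) and -0.11 ± 0.09 in CTRL cells (adjusted p 0.362).

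**Figure D4:**
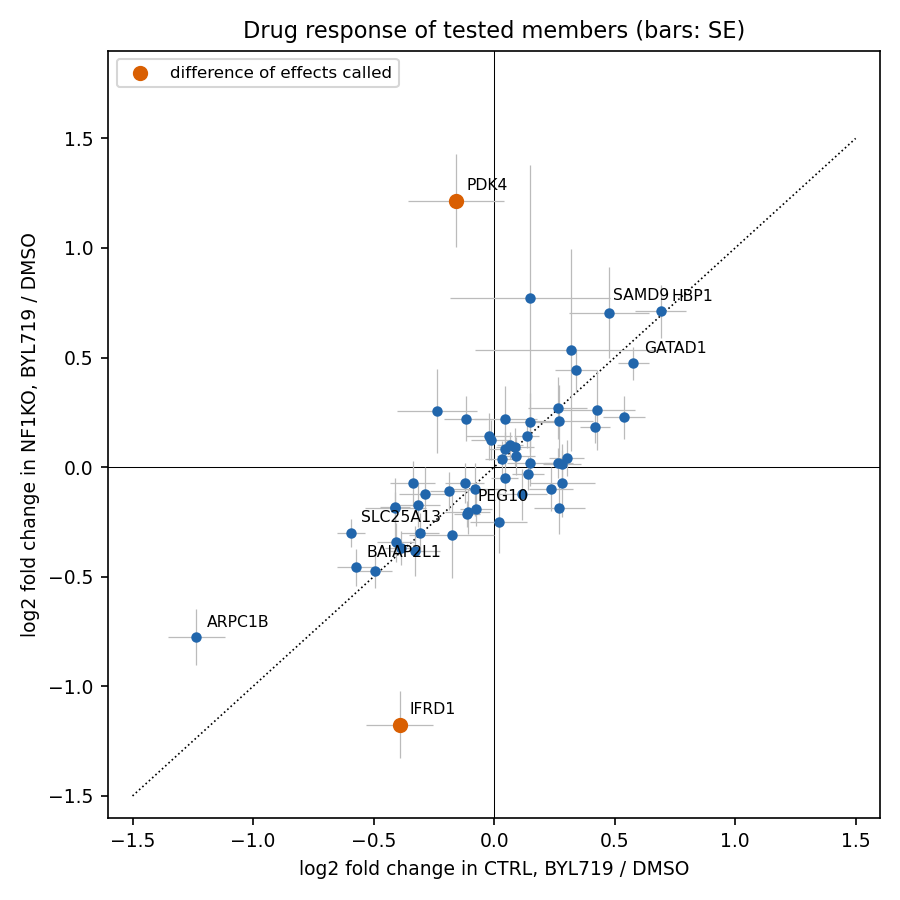
Log2 fold change of BYL719 over DMSO in NF1KO cells (vertical axis) against that in CTRL cells (horizontal axis) for the 56 tested members with standard errors, in orange where the difference of effects was called; the dotted line marks equal effects. HBP1 rose and ARPC1B fell in both lines, PDK4 rose in NF1KO cells, and IFRD1 lies below the line.

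The drug effect differed between the lines for 2 of the 56 members, PDK4 and IFRD1. The difference is the NF1KO effect less the CTRL effect, which is also the difference of the contrasts that chose the members, although lower values in both treatments do not set its sign. Its median over the members was 0.01, as over all tested genes. By edgeR's interaction term, 1 member was higher and 1 lower, where 5.68% of all tested genes were higher and 3.71% lower. Neither call was kept under all 20 alternatives. Without CTRL BYL719 replicate 1 there were 3 higher and 2 lower, and without NF1KO DMSO replicate 3 there were 0 of each. With 1 other library left out there was 1 higher each time, and 1 lower without CTRL BYL719 replicate 3 or CTRL DMSO replicate 1 and 0 lower otherwise. Of the 54 others, SLC25A13 came nearest to the threshold, at a difference of 0.29 ± 0.09 (edgeR adjusted p 0.0510).

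PDK4 rose in NF1KO cells by the values above, whereas it read 1.29, 1.75 and 1.71 CPM in CTRL BYL719 and 1.25, 1.95 and 2.10 CPM in CTRL DMSO, where the groups overlapped and the log2 fold change was -0.16 ± 0.20 (edgeR adjusted p 0.550). The difference of effects was 1.38 ± 0.29 (edgeR adjusted p 0.0102). It was not called without NF1KO DMSO replicate 3, at 1.29 (edgeR adjusted p 0.0658, over a range of 0.000216 to 0.0658 for all alternatives). In the vehicle it read 2.11 ± 0.196 CPM in NF1KO DMSO and 1.77 ± 0.450 CPM in CTRL DMSO (SD), where the groups overlapped.

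IFRD1 read 19.8, 16.5 and 15.4 CPM in CTRL BYL719 and 28.3, 20.4 and 19.1 CPM in CTRL DMSO, where 1 treated library lay above 1 vehicle library. It fell by 1.18 on the log2 scale in NF1KO and by 0.39 in CTRL cells, and the difference was -0.78 ± 0.21 (edgeR adjusted p 0.0338). This call was lost without any 1 library other than CTRL BYL719 replicates 1 and 3 and CTRL DMSO replicate 1 (edgeR adjusted p 0.0549 to 0.165, over a range of 0.000146 to 0.165). Correspondingly, the knockout level of IFRD1 was 69.1% of the CTRL mean in BYL719 and 119% in DMSO. IFRD1 and TRIP6 were the members on opposite sides of 0 in the treatments. The DMSO value of IFRD1, a log2 fold change of 0.25, moved to 0.45 without CTRL DMSO replicate 1, the highest of its group.

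**Figure D5:**
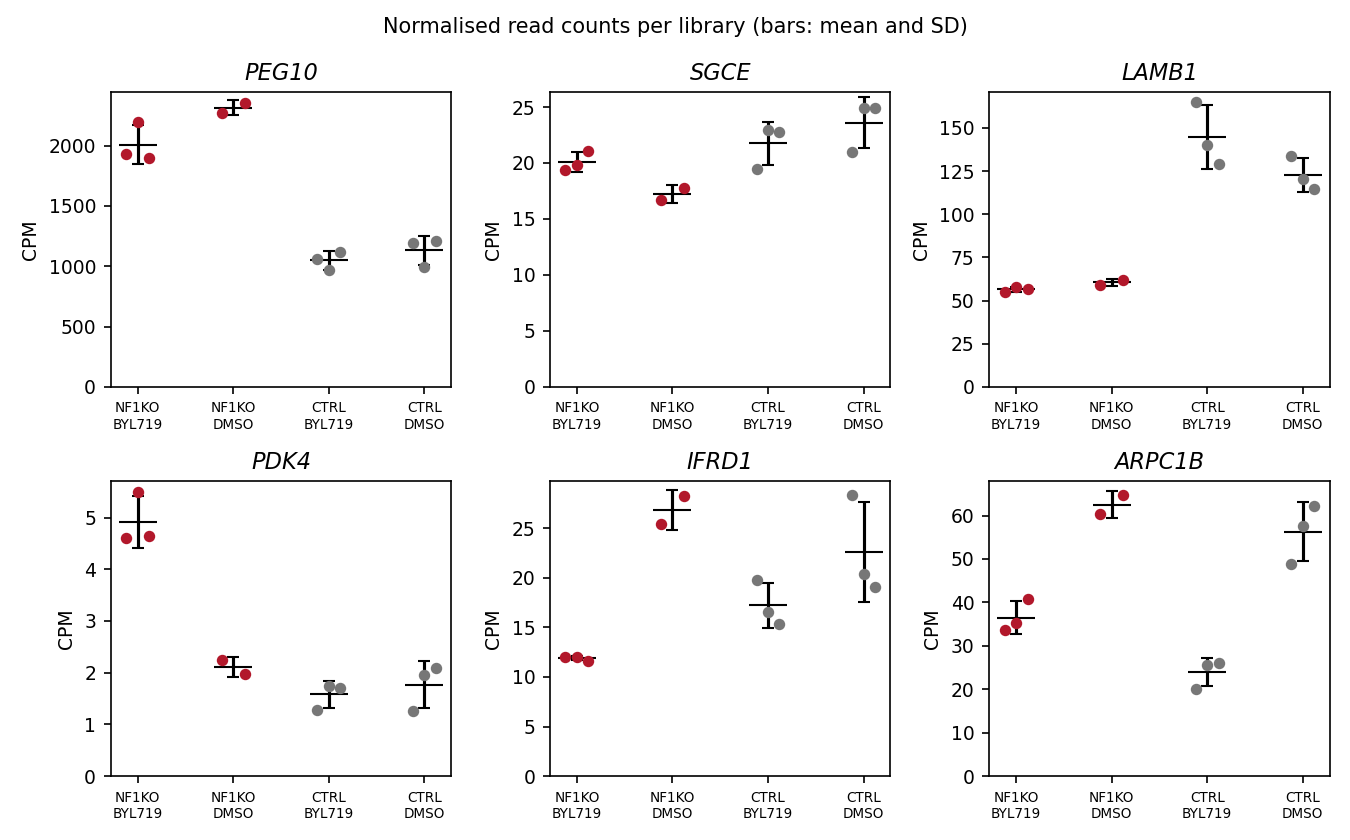
CPM (vertical axis, from 0) of PEG10, SGCE, LAMB1, PDK4, IFRD1 and ARPC1B in NF1KO BYL719, NF1KO DMSO, CTRL BYL719 and CTRL DMSO libraries (horizontal axis), with points for libraries and bars for the mean and SD. PEG10 is higher in all NF1KO libraries, LAMB1 is lower in them, and PDK4 is high in NF1KO BYL719 alone.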

How the data were processed

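Per the labels' protocols, polyadenylated RNA was made into TruSeq stranded mRNA libraries and sequenced as single 76-base reads. The authors deposited raw counts per Entrez gene. The submitters' processing notes name STAR 2.5.2a, SAMtools 1.7, Picard 2.9.2, edgeR and hg38; the counting tool, annotation and strand setting were not given in the sources used here. Genes were placed by RefSeq on GRCh38.p14 (27740 of 27864).

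Counts were analysed with edgeR 4.0.16 in R 4.3.3: filterByExpr (16081 genes), TMM scaling, and a quasi-likelihood fit of 4 groups with 7 residual degrees of freedom. Tests were 2-sided with Benjamini-Hochberg adjustment over all tested genes at 0.05. CPM used TMM-scaled library sizes with their SD, and SEs of log2 fold changes were taken as |log2 fold change|/√F. Median absolute deviations were scaled by 1.4826. The steps were tested on simulated counts.

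The members and lists were chosen with earlier results of these data known. Any member could be named. Values were fixed for the 8 lowest and 8 highest mean knockout changes, up to 8 called drug changes per line and direction, called differences of effects, and neighbouring pairs.

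Settings tried in place of these were RLE or upper-quartile scaling, an unfiltered table, a filter at 1 CPM in 3 libraries, limma-voom (limma 3.58.1), DESeq2 1.42.0, a replicate block, a fit to the compared libraries alone, and omission of each library in turn. Deviations of CTRL libraries with the same number correlated at 0.59, 0.34 and 0.32 across genes. Those of DMSO 2 with BYL719 3 and of DMSO 3 with BYL719 2 correlated at 0.23 and 0.18. Number 1 correlated negatively with the other numbers, so it was set apart as a pair, while the pairing of 2 and 3 was less clear. The NF1KO pairs correlated at 0.08 and 0.15, which leaves their pairing unshown. The main fit used the groups only and took no account of pairing. With the replicate block, 8 members rose in NF1KO cells in place of 5. Figures used matplotlib 3.10.9.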

Additional observations from a re-analysis of the deposited data

Results flagged for a closer look

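The effect of BYL719 differed between the lines for 2 of the 56 tested members by edgeR's interaction term, or 3.57%. Over all tested genes 9.39% were called, so the members were not called more often than genes in general. Neither call was kept under every alternative, and the IFRD1 call was lost under more of them than the PDK4 call. PDK4 had a difference of effects of 1.38 (NF1KO less CTRL, log2), with an edgeR adjusted p of 0.0102. All 3 NF1KO BYL719 libraries lay above both NF1KO DMSO libraries, while the CTRL groups overlapped. IFRD1 had a difference of -0.78, with an edgeR adjusted p of 0.0338, and all 3 NF1KO BYL719 libraries lay below all other libraries.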

How the results depend on the processing

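No result reversed its sign under any alternative. The members' median knockout change in DMSO lay between -0.48 and -0.44 and that in BYL719 between -0.55 and -0.49 when single libraries were left out. In BYL719 it was -0.54 with DESeq2, with RLE and with upper-quartile scaling, and -0.48 without both CTRL number-1 libraries, an alternative added after seeing the data. The cause was not tested. Scaling moved the median of all tested genes by less than 0.1 in every comparison.

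Without single libraries, 7 to 12 members rose and 10 to 16 fell under BYL719 in CTRL cells, 3 to 6 rose and 4 to 10 fell in NF1KO cells, and 0 to 3 were higher and 0 to 2 lower in the difference of effects. In NF1KO cells 8 members rose with the replicate block or with only the compared libraries, and 11 without both CTRL number-1 libraries. In the difference of effects, 2 members were higher with DESeq2, with limma-voom, with upper-quartile scaling or with the 1 CPM filter, 4 with the replicate block and 5 without both CTRL number-1 libraries. Likewise 2 were lower with DESeq2, and 3 with the replicate block or without both CTRL number-1 libraries. The replicate block also changed no named call. With 2 NF1KO DMSO libraries, leaving out 1 left a lone library, whose spread was taken to be that of the other groups. The 1 CPM filter tested 55 members.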

Other observations

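The stretch also stood apart when the genome was cut without regard to the members. All tested genes with a position were laid out in 310 tiles of 50 neighbours. The 4 tiles that hold members had the 4 lowest means of the knockout medians, at -0.55 to -0.47 in BYL719 and -0.53 to -0.32 in DMSO. In the other tiles the medians ran between -0.44 and 0.27 in BYL719 and between -0.29 and 0.21 in DMSO. The stretch was seen before the tiles were drawn, so this is a description.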
